A study of Mus musculus with 38 samples.

Results

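The M-phase of the MII oocyte was compared with the first mitotic M-phase of the embryo, in RNA that travels with polysomes. Both groups were taken by the stage, fraction and letter in the names of the deposited columns. They hold 3 libraries each, MII A, B and C and zygote M A, B and C, so 6 of the 36 libraries that have a column, in a series of 38 listed samples. MII oocytes came from ICR females primed with gonadotropin. They were collected in medium with IBMX, which keeps oocytes from resuming meiosis, freed of cumulus cells and matured in culture without it. Zygote M embryos came from primed ICR females that had also received hCG and been mated with ICR males, and were held in M-phase with nocodazole, which blocks the growth of microtubules. A treatment field in the labels of zygote M names meiosis, while their titles and source field name zygotes and embryos. The titles were followed. Zygotes were recovered from the oviduct and then cultured, in a different medium from that of the oocytes. Meiosis against mitosis, oocyte against embryo, and the source and medium of the cells separate the same 3 and 3 libraries. IBMX at collection against nocodazole before lysis does so too, and none of these can be told apart here. Both groups were treated with cycloheximide, which holds ribosomes on the mRNA, and each lysate was run on a sucrose gradient. Of the 10 fractions of a gradient, the heavier 5 were pooled as polysomes and the lighter 5 as non-polysome. The series describes the replicates as biological.

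An oocyte at MII waits for sperm with its second meiotic spindle assembled. The wait is held by the cytostatic factor, in which the kinase MOS drives MAP kinase and EMI2, the product of Fbxo43, blocks the anaphase-promoting complex. The zygote enters mitosis with the same cyclin B and CDK1 machinery but without that arrest. RNA synthesis is silent in the ripe oocyte and low before the first cleavage, so the pool of mRNAs on ribosomes is set largely by which stored transcripts are masked, polyadenylated, translated or destroyed. The libraries were made with a kit that primes cDNA on poly(A) tails, and the values are FPKM, fragments scaled by exon length and by the number of mapped fragments. A value is therefore a level relative to the rest of its library. A longer tail and more RNA cannot be told apart, nor can fewer ribosome-bound copies per cell and fewer cells.

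The 6 libraries were of similar relative depth, between 1 and 1.27 times that of MII A as read from the steps between the lowest values. Every value carries an offset of 0.01 FPKM, which is called the floor below. The MII libraries had 4686 to 4910 genes above 1 FPKM and the zygote M libraries 4031 to 4153. Correlations of log2 FPKM over the genes tested were 0.922 to 0.932 within MII, 0.841 to 0.898 within zygote M and 0.622 to 0.689 between them, which are given as descriptions. Of 10 oocyte markers, all 10 exceeded 1 FPKM in an MII library and 9 in a zygote M library, with summed levels of 4021 to 5167 FPKM and 438 to 689.7 FPKM. Of the 10 cumulus and granulosa markers in the table none exceeded 1 FPKM in any of the 6 libraries. Oviduct markers summed to 3.15 to 6.80 FPKM in MII and 0.431 to 0.734 FPKM in zygote M, blood markers to 1.08 to 3.83 FPKM and 4.67 to 15.6 FPKM, and sperm markers to 2.54 to 4.87 FPKM and 1.95 to 3.04 FPKM.

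Of 7967 genes tested, 713 had a higher level in MII polysomes and 271 a lower one (limma, Benjamini-Hochberg adjusted p under 0.05 and a fold beyond 2), which is 8.95% and 3.4% of the genes tested and 12.4% in both directions together. Log2 fold changes are given as MII minus zygote M throughout, so a positive value is a higher level in MII. The median over all genes tested was 0.46, and lists of genes below are read beside it. After quantile normalization the median was -0.23 and the split was 1014 higher and 1068 lower. With each library centred on its median it was -0.16 and the split was 438 higher and 432 lower. All 438 of those were among the 713, and all 271 lower genes stayed lower in both. List counts given below under these scalings are read beside these splits of the 7967 genes tested. The fit shares its spread over all 36 libraries, and the median residual SD of 1.63 on the log2 scale was well above the median SD within MII (0.419) or zygote M (0.562). In a fit of the 6 libraries alone, 2156 genes were higher and 1079 lower (27.1% and 13.5% of the genes tested, 40.6% in all), among them 706 of the 713 and 269 of the 271. The 3 and 3 libraries did not overlap for 57.2% of all genes tested and for 978 of the 984 called. Of the calls, 371 of 713 and 147 of 271 were kept in each of the 6 fits that left out 1 library.

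Mos, the gene for the kinase of the cytostatic factor (chr4:3870657-3872105 in GRCm38, minus strand), was high in MII and low in zygote M. Its level was 1442, 2021 and 1926 FPKM in MII and 13.2, 7.74 and 15.6 FPKM in zygote M. The groups were far apart, with means that differed 148-fold (log2 fold change 7.25 ± 1.44 (SE), adjusted p = 0.000799). In the polysomes of GV oocytes Mos was at 481, 837 and 478 FPKM and in those of interphase zygotes at 70.6, 87.9 and 87.02 FPKM. Bub1b encodes the checkpoint kinase BUBR1 and stood at 19.95, 17.7 and 6.94 FPKM in MII and 0.147, 0.0198 and 0.151 FPKM in zygote M. Its zygote M values all lay near the floor (log2 fold change 7.47 ± 1.25 (SE), adjusted p = 0.000104).

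Pttg1 moved the other way. It encodes securin, the inhibitor of separase that the anaphase-promoting complex destroys at anaphase, and lies at chr11:43420250-43426251 on the minus strand. Its level was 50.97, 55.1 and 51.4 FPKM in MII and 2939, 2166 and 2846 FPKM in zygote M, without overlap (log2 fold change -5.65 ± 0.37 (SE), adjusted p = 1.45e-11). Securin mRNA alone was on average 50.5 times as high in zygote M as in MII. GV polysomes held 408, 1028 and 367 FPKM and zygote polysomes 259, 105 and 232 FPKM, so MII was the lowest of the 4 stages and zygote M the highest.

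Both genes for the small CDK1-binding subunits were lower in MII. Cks2 was at 3.47, 4.41 and 3.91 FPKM in MII and 37.3, 27.03 and 22.3 FPKM in zygote M (log2 fold change -2.85, adjusted p = 4.58e-05). Cks1b was at 62.7, 134 and 84.5 FPKM in MII and 388, 270.2 and 324 FPKM in zygote M (log2 fold change -1.86, adjusted p = 0.000698). In neither gene did the 3 MII libraries reach the lowest zygote M library. Ube2s, the enzyme that extends ubiquitin chains for the anaphase-promoting complex, was also lower, at 4.29, 4.55 and 4.44 FPKM in MII and 17.5, 20.4 and 16.4 FPKM in zygote M (log2 fold change -2.03, adjusted p = 0.000695).

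The genes for cyclin B and CDK1, and several genes of their control, gave no call. Ccnb1, cyclin B1, stood at 122, 108 and 132 FPKM in MII and 102, 57.6 and 137 FPKM in zygote M, with overlapping libraries. The 95% interval of its log2 fold change was -0.50 to 1.24, which includes a fold of 2 in MII. Cdk1 was low in both, at 2.49, 1.63 and 2.998 FPKM in MII and 2.31, 1.99 and 1.74 FPKM in zygote M (interval -1.05 to 1.45). Cdc20 encodes the activator of the anaphase-promoting complex and lies at chr4:118432901-118437352 on the minus strand. It was at 130.4, 136 and 157 FPKM in MII and 214, 111 and 172 FPKM in zygote M, and zygote M spanned all 3 MII values (interval -0.92 to 0.55). Both M-phases stood apart from the stages before them, since Cdc20 was at 4.77, 5.85 and 4.48 FPKM in GV polysomes and 2.02, 3.37 and 1.65 FPKM in zygote polysomes. Fbxo43, whose product EMI2 holds the MII arrest, was at 5.33, 6.098 and 1.92 FPKM in MII and 4.47, 1.796 and 4.25 FPKM in zygote M, again overlapping (interval -1.52 to 2.10). Ccnb2, Mad2l1 of the spindle checkpoint, and Wee2, the oocyte kinase that opposes CDK1, also overlapped, with adjusted p of 0.869, 0.814 and 0.932. A p that misses the threshold does not show equal levels, and the intervals of Fbxo43 (-1.52 to 2.10) and Ccnb2 (-2.13 to 3.25) are wide. All these intervals take their spread from the 36 libraries and not from the 6 compared.

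**Figure D1:**
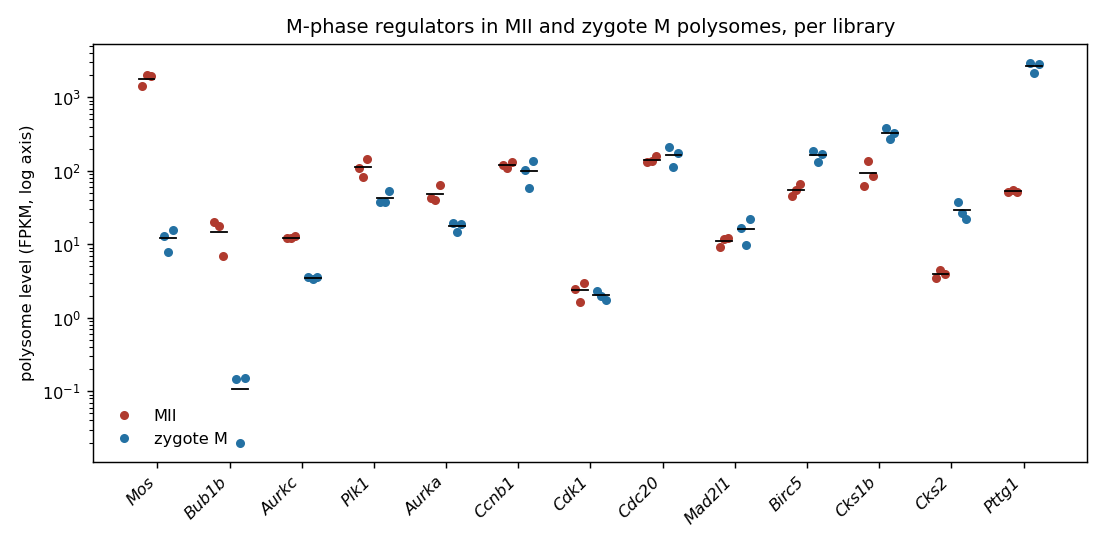
Polysome levels of 13 M-phase genes in each MII (red) and zygote M (blue) library, in FPKM on a log axis, with a bar at each group mean. Mos and Bub1b sit far higher in MII and Pttg1, Cks2 and Cks1b higher in zygote M, while the points of Ccnb1, Cdk1, Cdc20 and Mad2l1 overlap.

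Counted by list, 1 of 23 tested M-phase kinases and cyclins was higher in MII and 2 were lower. The median log2 fold change was 0.50 (-0.0689 after quantile normalization and -0.12 after centring). The higher gene, Mastl, overlapped at 2.30, 1.35 and 0.359 FPKM in MII and 0.41, 0.0147 and 0.109 FPKM in zygote M. It was not called in the fit of the 6 libraries, and was chosen after its values were seen. Of 27 genes of the anaphase-promoting complex, securin and the checkpoint, 1 was higher and 2 lower (median -0.19). The shares of all genes were 8.95% and 3.4%, and lists this small cannot be told apart from them by 1 or 2 calls. After quantile normalization 1 kinase or cyclin gene was higher and 4 lower, beside 1014 and 1068 of all 7967 genes. In the fit of the 6 libraries the counts were 3 and 3, beside 27.1% and 13.5% of all genes. For the second list these counts were 3 and 5, and 5 and 4. The members of the second list took 0.322% ± 0.00785 (SD, n = 3) of the summed FPKM in MII and 2.75% ± 0.485 (SD, n = 3) in zygote M, where Pttg1 made up most of it. Of 10 genes of the Mos and MAP kinase pathway, 1, Mos, was called over all libraries, and the list had 1 higher and 3 lower after quantile normalization. Mapk3, the MAP kinase ERK1, chosen after its values were seen, was at 34.3, 25.3 and 28.5 FPKM in MII and 157, 212 and 159.9 FPKM in zygote M without overlap (log2 fold change -2.58), and was called lower in the fit of the 6 libraries (adjusted p = 0.00028) but not over all libraries (0.0672).

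Among the Aurora, Polo and passenger genes, Aurkc, the Aurora kinase of germ cells, was at 12.2, 12.004 and 12.95 FPKM in MII and 3.57, 3.39 and 3.56 FPKM in zygote M (log2 fold change 1.82, adjusted p = 0.0247). The groups did not overlap, but the call was lost without any 1 of the 6 libraries (adjusted p 0.0649 to 0.0752), and also after quantile normalization and centring. In the fit of the 6 libraries Aurkc was called higher, as were 27.1% of all genes. Birc5, the survivin subunit of the passenger complex, was lower in MII, at 45.3, 54.9 and 65.2 FPKM in MII and 185, 133 and 169.9 FPKM in zygote M (log2 fold change -1.56, adjusted p = 0.00352). Plk1, the Polo kinase, stood at 111, 81.2 and 144 FPKM in MII and 37.9, 38.02 and 53.7 FPKM in zygote M. Its libraries did not overlap, and it was called in the fit of the 6 libraries (adjusted p = 0.00821) but not over all libraries (0.295). Aurka behaved alike, at 42.9, 40.4 and 63.4 FPKM in MII and 19.5, 14.8 and 18.8 FPKM in zygote M (adjusted p = 0.00396 and 0.168). Aurkb overlapped, at 3.39, 4.65 and 4.38 FPKM in MII and 3.09, 3.03 and 4.10 FPKM in zygote M. Its interval was wide (-3.77 to 4.34), and takes its spread from all 36 libraries and not from these 6 alone. Of the 14 genes on this list, 1 was higher and 1 lower (7.14% each, beside 8.95% and 3.4% of all genes). After quantile normalization none was higher and 2 were lower, and after centring none and 1.

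At the kinetochore, 3 of 28 tested genes (10.7%, beside 8.95% of all genes) were higher in MII and none lower, and after centring none was called higher and 1 lower. Spc24, a subunit of the NDC80 complex that holds microtubules, was at 36.5, 35.3 and 31.4 FPKM in MII and 4.54, 6.21 and 3.67 FPKM in zygote M (log2 fold change 2.87, adjusted p = 0.0192), a call lost without MII A, MII B, zygote M A or zygote M C (adjusted p 0.0564 to 0.0728). Cenpt, which anchors that complex to the centromere, was at 9.71, 8.07 and 9.52 FPKM in MII and 0.01, 0.727 and 0.452 FPKM in zygote M (log2 fold change 5.93, adjusted p = 0.0349), a call lost without MII A, MII B, MII C or zygote M A (adjusted p 0.0855 to 0.251). The centromeric histone gene Cenpa overlapped (10.5, 19.3 and 14.6 FPKM in MII and 10.8, 6.96 and 9.52 FPKM in zygote M).

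Of 15 tested tubulin genes, 3 were higher in MII and 2 lower, beside 8.95% and 3.4% of all genes. Tubb4b, a beta-tubulin of the microtubule wall, was at 562, 551 and 796 FPKM in MII and 78.1, 64.999 and 38.2 FPKM in zygote M (log2 fold change 3.44, adjusted p = 0.00192). Tubb5, another beta-tubulin, was at 26.2, 22.8 and 30.4 FPKM in MII and 1.24, 0.746 and 1.0995 FPKM in zygote M (log2 fold change 4.71, adjusted p = 0.0163), with the call lost without MII A, MII C or zygote M B (adjusted p 0.052 to 0.0623). Gamma-tubulin nucleates microtubules and has a pair of genes in the mouse, both lower in MII. Tubg2 was at 18.5, 10.997 and 17.8 FPKM in MII and 200.1, 216 and 226 FPKM in zygote M (log2 fold change -3.80, adjusted p = 1.27e-06), and Tubg1 was at 18.4, 12.2 and 20.5 FPKM in MII and 72.8, 69.7 and 69.2 FPKM in zygote M (log2 fold change -2.09, adjusted p = 0.00281). No gamma-tubulin value in MII reached a zygote M value. The third higher gene, Tube1 for epsilon-tubulin, averaged 2.17 FPKM in MII and 0.57 FPKM in zygote M (log2 fold change 2.47, adjusted p = 0.0225), a call lost without MII B, MII C or zygote M B (adjusted p 0.0617 to 0.243) and in the fit of the 6 libraries (0.0566). It was chosen after its values were seen. None of the 6 alpha-tubulin genes tested and 2 of the 6 beta-tubulin genes were called over all libraries. In the fit of the 6 libraries, with 27.1% of all genes higher, 5 alpha-tubulin genes (Tuba1b, Tuba1c, Tuba3a, Tuba3b and Tuba4a) were called higher. So were 4 beta-tubulin genes (Tubb3, Tubb4b, Tubb5 and Tubb6). After quantile normalization the list had 7 higher and 2 lower, beside 1014 and 1068 of all 7967 genes. In interphase zygotes Tubb4b was still at 535, 569.5 and 611 FPKM, close to MII, and in GV polysomes at 257, 105 and 135 FPKM, so zygote M was the lowest of the 4 stages.

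Of 27 kinesins and spindle proteins, 4 were higher in MII and 1 lower (14.8% and 3.7%, beside 8.95% and 3.4% of all genes). Kif22, the chromokinesin that pushes chromosome arms outward, was at 52.4, 51.8 and 64.95 FPKM in MII and 1.09, 0.374 and 1.63 FPKM in zygote M (log2 fold change 6.01, adjusted p = 0.00287). Tacc3, a partner of clathrin and chTOG on spindle fibres, was at 40.96, 23.2 and 41.1 FPKM in MII and 1.86, 2.45 and 1.87 FPKM in zygote M (log2 fold change 4.06, adjusted p = 0.000255). Prc1, which bundles the midzone microtubules, was at 11.98, 8.28 and 2.85 FPKM in MII and 0.6098, 0.647 and 0.851 FPKM in zygote M (log2 fold change 3.24, adjusted p = 0.00384). The lower one, Haus5 of the augmin complex, was at 0.429, 0.161 and 0.466 FPKM in MII and 12.2, 11.1 and 16.7 FPKM in zygote M (log2 fold change -5.37, adjusted p = 0.0339). Its 3 and 3 libraries were far apart, but the call was lost without any 1 of the 6 libraries (adjusted p 0.0662 to 0.126). Of 14 cohesin, condensin and shugoshin genes, 2 were higher (14.3%) and none lower, beside 8.95% and 3.4% of all genes.

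The signal best known for waking stored mRNAs in the maturing oocyte is the cytoplasmic polyadenylation element, bound by CPEB1. The annotated 3′ ends of tested protein-coding genes were searched on the transcribed strand for TTTTAT or TTTTAAT in the last 100 bases. The sequences below (GENCODE M21 transcript models on GRCm38, 5′ to 3′ on the transcript) are 6 examples from M-phase and chromatin genes, shown because they include genes higher, lower and not called, with 1 element each in capitals. In Cdc20, whose 3′ UTR is under 100 bases, a second element overlaps the marked one.
Bub1b, chr2:118641554-118641583, plus strand: ttcactgtgtaTTTTATaataaaatagttt
H2afx, chr9:44336028-44336057, plus strand: taatgggctaaTTTTATtaaaggatcgttt
H1foo, chr6:115950158-115950187, plus strand: gattctgaagcTTTTATtgtctaataagct
Cdc20, chr4:118432917-118432946, minus strand: tcttgtttttaTTTTATtttttctaataaa
Cks1b, chr3:89415472-89415501, minus strand: ttgattaaaggaagttTTTTATaatcttaa
Cks2, chr13:51650599-51650628, plus strand: ataaatgcctgTTTTATtttacctgttttg
The element lies in genes that were higher in MII (Bub1b, H2afx, H1foo), in genes that were lower (Cks1b, Cks2) and in Cdc20, which was not called. Of the other M-phase genes described, Aurkc and Kif22 (both higher) and Aurka, Aurkb and Wee2 (not called) also hold it. Among protein-coding genes with at least 100 bases of 3′ UTR it was present in 18.7% of 417 higher, 18.1% of 138 lower and 19.3% of 5273 genes not called. A match is a run of letters and not a measured binding site. Cpeb1 itself was at 3.85, 6.101 and 3.74 FPKM in MII and 0.156, 0.184 and 0.394 FPKM in zygote M (log2 fold change 4.31, adjusted p = 0.0106).

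Among the histone genes named, the gap was widest for H2afx. H2afx encodes the histone variant H2A.X that is phosphorylated at broken DNA, and lies at chr9:44334694-44336077 on the plus strand. It was at 1035, 883 and 654 FPKM in MII and 4.69, 2.75 and 2.29 FPKM in zygote M (log2 fold change 8.09 ± 1.37 (SE), adjusted p = 0.000127). GV polysomes held only 5.04, 30.4 and 5.05 FPKM and zygote polysomes 4.26, 4.21 and 4.67 FPKM, so MII stood above the 3 other stages. H1foo, the linker histone of the oocyte, was at 1308, 1021 and 1845 FPKM in MII and 119, 49.9 and 68.3 FPKM in zygote M (log2 fold change 4.19, adjusted p = 7.14e-05). H2afj was at 100.3, 101 and 65.3 FPKM in MII and 2.49, 9.598 and 6.56 FPKM in zygote M (log2 fold change 4.02, adjusted p = 9.21e-06). H3f3a, a gene for the replacement histone H3.3, was at 11.3, 10.6 and 9.38 FPKM in MII and 4.68, 1.03 and 4.33 FPKM in zygote M (log2 fold change 1.92, adjusted p = 0.0164), with the call lost without MII A, MII B or zygote M B (adjusted p 0.0534 to 0.193). H2afz was not called and its libraries overlapped (10.9, 21.4 and 14.8 FPKM in MII and 17.2, 29.3 and 15.7 FPKM in zygote M). Npm2, the egg chaperone that remodels sperm chromatin, was at 3.097, 2.301 and 1.64 FPKM in MII and 4.76, 4.59 and 4.88 FPKM in zygote M, and was not called over all libraries (adjusted p = 0.246), but was called lower in the fit of the 6 libraries (adjusted p = 0.0293), after quantile normalization and after centring. In this list of histone variants, linkers and chaperones 5 of 27 genes were higher and 1 lower, beside 8.95% and 3.4% of all genes. Its median log2 fold change was 0.31, beside 0.46 for all genes. The counts were 6 and 4 after quantile normalization (median -0.33) and 3 and 2 after centring (median -0.31). Replication-dependent histones had 3 of 38 (7.89%, beside 8.95% of all genes) higher and none lower, with a median of 2.68, and 22 higher and 1 lower in the fit of the 6 libraries, where 27.1% of all genes were higher. Their mRNAs end in a stem-loop and mostly lack a poly(A) tail, so a kit primed on tails reads them unevenly.

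Several genes of the egg coat and of factors that the oocyte secretes were high on MII polysomes and low in zygote M. Zp3, a protein of the zona pellucida, was at 295, 262 and 247 FPKM in MII and 15.1, 28.4 and 20.1 FPKM in zygote M (log2 fold change 3.71, adjusted p = 0.00455). Zp1, which links zona filaments, was at 333, 239 and 309 FPKM in MII and 13.5, 30.7 and 21.2 FPKM in zygote M (log2 fold change 3.82, adjusted p = 0.00178). Plat, the tissue plasminogen activator that oocytes translate as they mature, was at 96.7, 107 and 51.3 FPKM in MII and 1.203, 0.818 and 0.987 FPKM in zygote M (log2 fold change 6.35, adjusted p = 0.00148). In GV polysomes it was at 6.43, 6.03 and 9.51 FPKM, below every MII value. Fgf8, a growth factor that the oocyte sends to cumulus cells, was at 272, 233 and 150.4 FPKM in MII and 7.0004, 6.87 and 7.65 FPKM in zygote M (log2 fold change 4.89, adjusted p = 0.0192), a call lost without MII A, MII B, zygote M A, zygote M B or zygote M C (adjusted p 0.0501 to 0.0699). It too was low in GV polysomes, at 3.93, 5.72 and 2.74 FPKM, where Zp3 and Zp1 were already high (371, 423 and 251 and 379.8, 315 and 160.5 FPKM). Of 16 tested genes of the zona, sperm-egg contact and secreted factors, 4 were higher and none lower, beside 8.95% and 3.4% of all genes. In the fit of the 6 libraries 7 were higher and 1 lower, beside 27.1% and 13.5% of all genes. Gdf9, another oocyte growth factor, was at 386, 379 and 473 FPKM in MII and 153, 122 and 151 FPKM in zygote M, did not overlap and was called higher in the fit of the 6 libraries (adjusted p = 0.00131) but not over all libraries (0.189). Its relative Bmp15, chosen after its values were seen, went the other way in that fit, at 51.1, 59.6 and 42.2 FPKM in MII and 204, 81.3 and 286 FPKM in zygote M without overlap (log2 fold change -1.74, adjusted p = 0.023 in the fit of the 6 libraries and 0.0936 over all). Gja4 encodes connexin 37, the gap-junction channel to the follicle cells. It was chosen after its values were seen and stood at 2371, 1868 and 1901 FPKM in MII and 86.5, 87.7 and 90.3 FPKM in zygote M (log2 fold change 4.53, adjusted p = 0.00345).

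Maternal-effect genes, whose products the embryo needs from the egg, had 4 of 20 higher and 1 lower, beside 8.95% and 3.4% of all genes. After centring 1 was higher and 2 lower, where 438 and 432 of all genes were called. The counts after quantile normalization were 8 and 3, beside 1014 and 1068 of all genes. Tle6 and Khdc3 belong to the subcortical maternal complex. Tle6 was at 486, 291 and 414 FPKM in MII and 22.2, 34.5 and 22.7 FPKM in zygote M (log2 fold change 3.91, adjusted p = 0.00819). Khdc3 was at 378, 460.3 and 418 FPKM in MII and 11.4, 27.4 and 8.04 FPKM in zygote M (log2 fold change 4.94, adjusted p = 0.0402), a call lost without any 1 of the 6 libraries (adjusted p 0.0612 to 0.129). Zar1, which binds stored mRNA, was at 329.9, 333 and 337 FPKM in MII and 90.96, 69.4 and 53.6 FPKM in zygote M (log2 fold change 2.26, adjusted p = 0.0165), with the call lost without MII A, MII B or zygote M C (adjusted p 0.0508 to 0.0719). The lower gene was Dppa3, also called Stella, which protects the maternal genome from demethylation. It was at 45.4, 44.96 and 53.8 FPKM in MII and 178, 61.7 and 126 FPKM in zygote M (log2 fold change -1.22, adjusted p = 0.0344), the call lost without MII A, MII B, MII C, zygote M A or zygote M C (adjusted p 0.0625 to 0.221). Ooep was at 169, 231 and 284 FPKM in MII and 113, 95.5 and 101 FPKM in zygote M, without overlap, and was called in the fit of the 6 libraries (adjusted p = 0.00985) but not over all libraries (0.0806). Nlrp5 was near 1 FPKM in both and overlapped. Tet3, the oxygenase of the paternal pronucleus, was at 1.87, 1.19 and 0.7597 FPKM in MII and 4.598, 5.25 and 5.803 FPKM in zygote M (log2 fold change -2.12, adjusted p = 0.0337), the call lost without MII B, MII C, zygote M A, zygote M B or zygote M C (adjusted p 0.0706 to 0.154).

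Of 27 genes of RNA storage and translational control, 3 (11.1%) were higher and none lower, and of 33 genes of RNA clearance 3 (9.09%) were higher and none lower, beside 8.95% higher among all genes tested. The counts depended on the scaling, with 5 higher and 5 lower in each list after quantile normalization (1014 and 1068 of all 7967 genes). After centring they were 1 and 3 in the first list and 3 and none in the second (438 and 432 of all genes). Pabpn1l, the germ-cell poly(A)-binding protein, was at 505, 576 and 577 FPKM in MII and 20.8, 29.2 and 23.3 FPKM in zygote M (log2 fold change 4.51, adjusted p = 0.00075). The exosome subunit Exosc5 was at 22.4, 21.6 and 11.5 FPKM in MII and 0.482, 0.337 and 0.499 FPKM in zygote M (log2 fold change 5.36, adjusted p = 0.000177), and Exosc4 at 206, 219 and 113 FPKM in MII and 12.5, 6.16 and 5.32 FPKM in zygote M (log2 fold change 4.53, adjusted p = 0.0206), the latter lost without MII A, MII B, zygote M B or zygote M C (adjusted p 0.0695 to 0.0728). Btg4, the adaptor that brings the CCR4-NOT deadenylase to maternal mRNA, overlapped between the groups (19.7, 31.5 and 10.95 FPKM in MII and 24.02, 13.5 and 29.9 FPKM in zygote M), as did Dazl (6.33, 7.08 and 2.78 FPKM in MII and 3.696, 1.68 and 2.33 FPKM in zygote M).

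**Figure D2:**
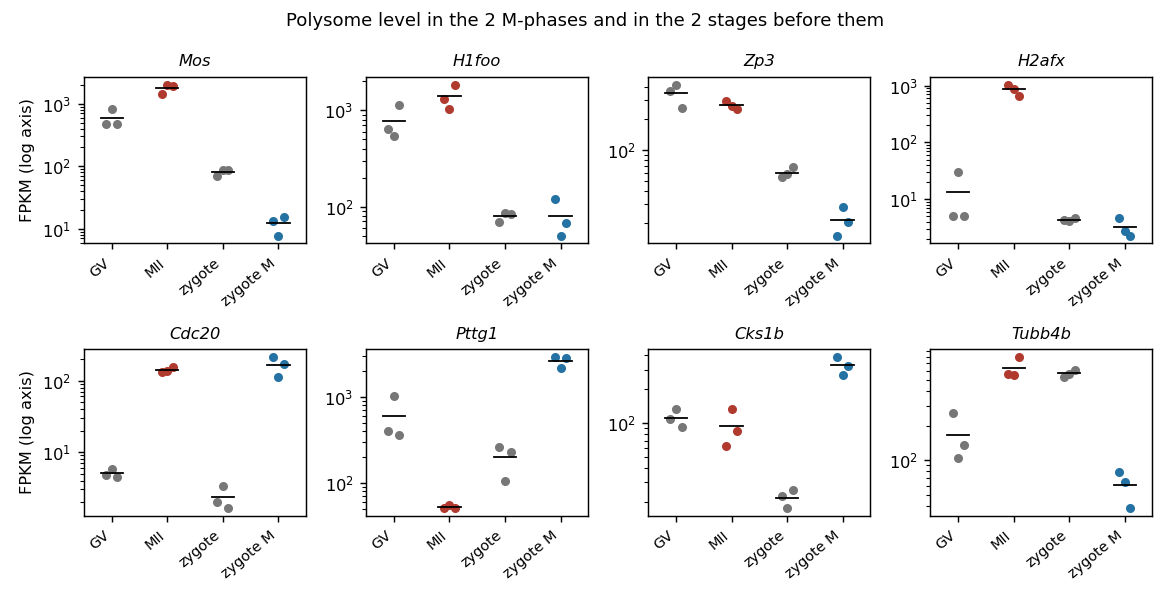
Polysome levels (FPKM, log axes) of 8 genes in every library of GV, MII, zygote and zygote M, with a bar at each mean of 3. Mos, H1foo and Zp3 are high in both oocyte stages, H2afx is high in MII, Cdc20 is high in both M-phases, and Pttg1 and Cks1b are highest in zygote M.

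The broadest difference lay in the cytosolic ribosomal proteins. Of 82 tested genes, 57 were higher in MII and 1 was lower, beside 8.95% and 3.4% of all genes. The median log2 fold change was 3.83, beside 0.46 for all genes. The counts were 60 and 2 after quantile normalization and 53 and 2 after centring. The MII and zygote M libraries did not overlap for 73 of the 82, beside 57.2% of all genes tested. The median of the gene means was 6.52 FPKM in MII and 0.524 FPKM in zygote M. Reads of ribosomal protein genes can be shared with their many processed pseudogenes, so the level of a single gene is uncertain.

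Rps9, a protein of the small subunit near the mRNA entry, was at 38.8, 51.4 and 47.1 FPKM in MII and 0.352, 1.26 and 0.372 FPKM in zygote M (log2 fold change 6.37 ± 0.53 (SE), adjusted p = 1.4e-09). Rps27a, which is made as a fusion with ubiquitin, was at 5.83, 7.42 and 8.39 FPKM in MII and 0.01, 0.0322 and 0.0664 FPKM in zygote M (log2 fold change 8.01, adjusted p = 5.67e-08). Rpl35, of the large subunit near the exit tunnel, was at 13.3, 12.6 and 14.5 FPKM in MII and 0.462, 1.19 and 0.6404 FPKM in zygote M (log2 fold change 4.25, adjusted p = 1.89e-05). All MII values of these genes lay above all zygote M values, and in Rps27a 1 zygote M library was at the floor. Rps4x was at 35.3, 30.1 and 51.2 FPKM in MII and 0.328, 0.896 and 0.437 FPKM in zygote M (log2 fold change 6.23, adjusted p = 8.25e-05) and Rps13 at 4.66, 7.29 and 7.38 FPKM in MII and 0.113, 0.207 and 0.0265 FPKM in zygote M (log2 fold change 6.21, adjusted p = 1.21e-05). The lower gene was Rps27l, a paralogue of Rps27, with a mean of 19.8 FPKM in MII and 80.1 FPKM in zygote M (log2 fold change -2.04, adjusted p = 0.000594). Rplp0, of the ribosomal stalk, had the highest MII mean of the list, 261 FPKM. Rps27l and Rplp0 were chosen after their values were seen.

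Ribosomal protein mRNAs are the textbook class with a terminal oligopyrimidine tract, a C followed by a run of C and T at the very 5′ end, which places them under mTOR and LARP1. A run of C and at least 4 further C or T was searched on the transcribed strand, starting within 5 bases of the RefSeq start. The sequences below (RefSeq, GRCm38.p6) give 10 bases before the annotated start and 20 from it on, for 4 genes that were all higher in MII, with the run in capitals where one starts within those 5 bases. The capitals begin at the first C inside that limit, and in Rpl35 the run of C and T itself reaches further upstream.
Rps9, chr7:3704031-3704060, plus strand: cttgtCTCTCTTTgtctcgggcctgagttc
Rpl35, chr2:39005112-39005141, minus strand: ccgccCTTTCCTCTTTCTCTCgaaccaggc
Rps4x, chrX:102189372-102189401, minus strand: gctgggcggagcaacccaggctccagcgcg
Rps13, chr7:116334171-116334200, minus strand: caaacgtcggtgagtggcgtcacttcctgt
A run was found in 31 of the 65 ribosomal protein genes with an entry (47.7%), in 24.3% of the 5241 tested genes with an entry and in 21.2% of all 27025 symbols of the table. For Rps4x and Rps13 no such run starts within 5 bases of the annotated start. Among protein-coding genes higher in MII the share was 26.4%, and without the ribosomal proteins 24.3%, beside 24.6% of genes lower in MII.

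**Figure D3:**
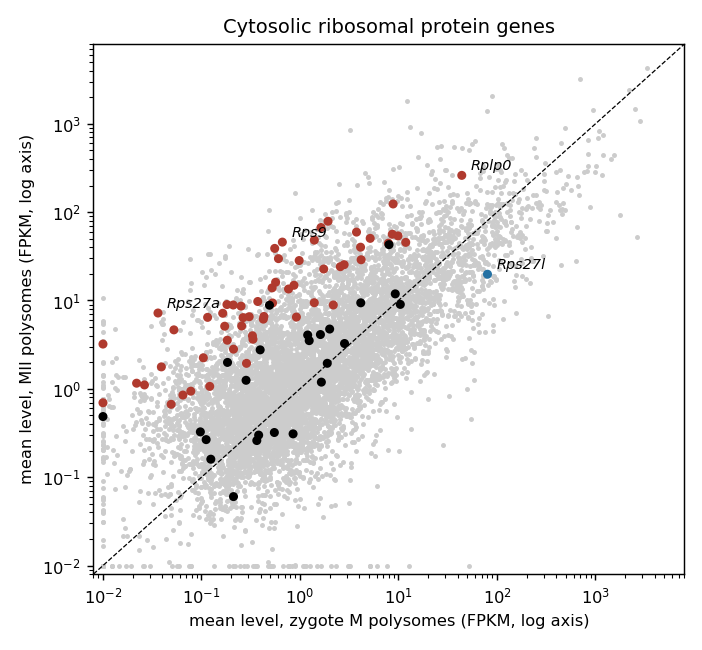
Mean polysome level of each tested gene in zygote M (x axis) and MII (y axis), in FPKM on log axes, with equal levels on the dashed line and ribosomal protein genes as large points (red higher in MII, blue lower, black not called). Of the 82 ribosomal protein genes 57 are red and 1, Rps27l, is blue.

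For the mitochondrial ribosome 10 of 76 genes (13.2%, beside 8.95% of all genes) were higher and none lower (median 1.75). Its most abundant called gene among those named, Mrpl12, was at 160.4, 154 and 114 FPKM in MII and 6.57, 16.9 and 8.19 FPKM in zygote M (log2 fold change 3.87, adjusted p = 3.78e-05). Mrpl14 was at 26.9, 32.3 and 20.7 FPKM in MII and 1.26, 2.29 and 1.42 FPKM in zygote M (log2 fold change 4.03, adjusted p = 0.00322), and Mrpl22 at 7.34, 7.204 and 8.63 FPKM in MII and 0.319, 0.542 and 0.487 FPKM in zygote M (log2 fold change 4.13, adjusted p = 0.000334). In the fit of the 6 libraries 47 of the 76 were higher and 2 lower, beside 27.1% and 13.5% of all genes. For the 82 cytosolic genes that fit gave 66 and 2. The counts of the mitochondrial list were 16 and 3 after quantile normalization and 5 and none after centring.

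Initiation factors had 10 of 51 higher and 3 lower (19.6% and 5.88%, beside 8.95% and 3.4% of all genes), with a median of 0.88. Eif3g, a subunit of the scanning complex, was at 18.2, 18.9 and 27.7 FPKM in MII and 0.596, 0.343 and 0.531 FPKM in zygote M (log2 fold change 5.47, adjusted p = 0.000855). Eif2b4, of the exchange factor that reloads eIF2, was at 91.7, 79.05 and 107 FPKM in MII and 1.997, 2.22 and 4.68 FPKM in zygote M (log2 fold change 5.06, adjusted p = 0.0014). Eif4a3, the helicase of the exon junction complex, was at 32.8, 34.4 and 43.4 FPKM in MII and 1.79, 0.947 and 2.205 FPKM in zygote M (log2 fold change 4.56, adjusted p = 0.000612). Eif3l was at 10.5, 6.78 and 11.02 FPKM in MII and 0.357, 0.0224 and 0.0565 FPKM in zygote M (log2 fold change 6.91, adjusted p = 0.0162), the call lost without MII A, MII C, zygote M B or zygote M C (adjusted p 0.0529 to 0.093). After quantile normalization the list had 13 higher and 9 lower, so its balance depended on the scaling. The counts of all 7967 genes moved as well, from 713 and 271 to 1014 and 1068.

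Elongation factors had 2 of 13 higher and 2 lower, beside 8.95% and 3.4% of all genes. Eef1d, of the exchange complex for eEF1A, was at 23.7, 23.8 and 32.97 FPKM in MII and 0.471, 0.729996 and 1.22 FPKM in zygote M (log2 fold change 5.14, adjusted p = 0.00323). Eif5a, which helps the ribosome past stalling peptides, was lower at 37.3, 51.4 and 53.4 FPKM in MII and 149.8, 136 and 77.99 FPKM in zygote M (log2 fold change -1.32, adjusted p = 0.00781), a call lost without MII A or zygote M A (adjusted p 0.0565 to 0.0571). Tpt1 was at 2.82, 1.39 and 2.26 FPKM in MII and 17.3, 12.5 and 14.7 FPKM in zygote M (log2 fold change -2.83, adjusted p = 0.000112). Eef2, the translocase, stood at 60.1, 42.4 and 64.99 FPKM in MII and 24.2, 22.2 and 23.2 FPKM in zygote M without overlap, and was called in the fit of the 6 libraries (adjusted p = 0.0045) but not over all libraries (0.221). Of 16 genes of mTOR signalling the one call was Lamtor2, part of the lysosomal Ragulator, lower in MII at 2.9998, 3.997 and 4.05 FPKM in MII and 25.7, 32.2 and 23.9 FPKM in zygote M (log2 fold change -2.89, adjusted p = 0.00841).

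Of 25 aminoacyl-tRNA synthetases, 6 were higher and 1 lower (24% and 4%, beside 8.95% and 3.4% of all genes), with a median of 2.22. Qars, which charges tRNA with glutamine, was at 76.5, 49.3 and 93.8 FPKM in MII and 10.1, 9.52 and 13.2 FPKM in zygote M (log2 fold change 2.71, adjusted p = 0.0342), the call lost without any 1 of the 6 libraries (adjusted p 0.0565 to 0.119). Lars2, the mitochondrial leucine enzyme, was the lower one and had the largest fall of the protein-coding genes named, at 0.277, 0.238 and 0.179998 FPKM in MII and 24.3, 45.6 and 15.2 FPKM in zygote M (log2 fold change -6.81 ± 0.56 (SE), adjusted p = 1.31e-09). The mouse Lars2 gene model overlaps sequence that resembles ribosomal RNA, so reads of ribosomal RNA cannot be told apart from its mRNA.

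**Figure D4:**
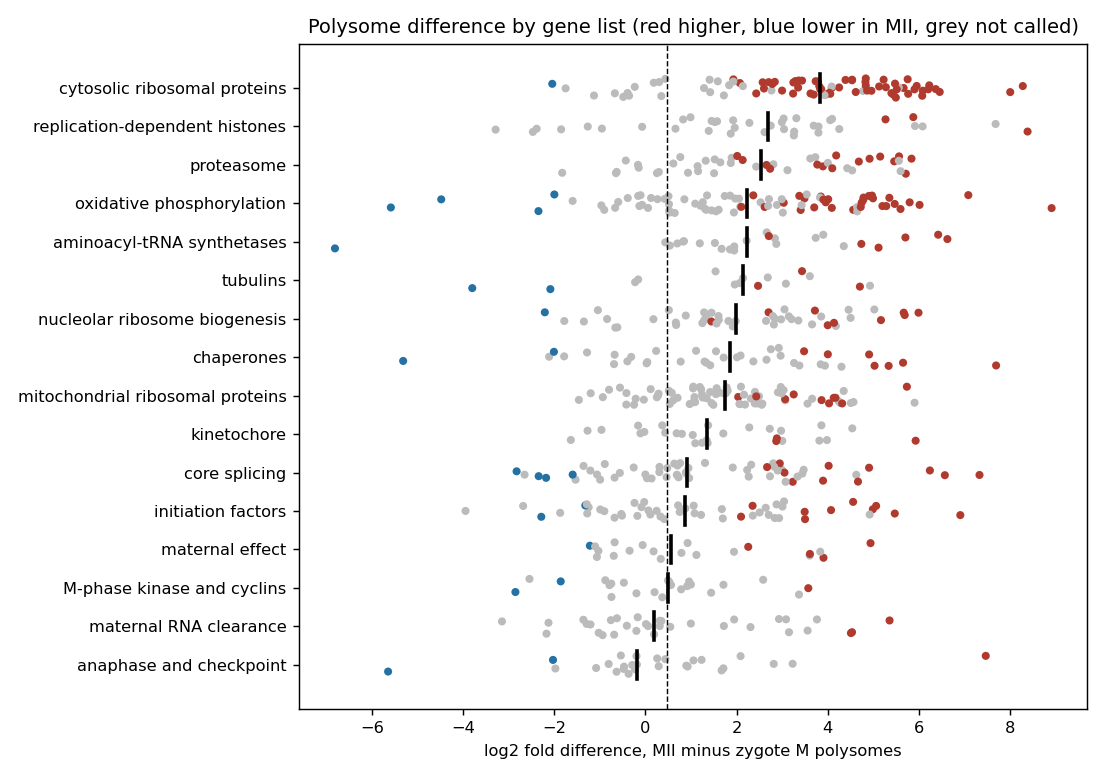
Log2 fold difference (MII minus zygote M, x axis) of each tested gene in 16 gene lists, coloured by call (red higher, blue lower, grey not called), with a bar at each list median and a dashed line at the median of all genes tested, 0.46. The ribosomal protein median, 3.83, is the farthest from the line among the lists drawn, and the anaphase and checkpoint median, -0.19, lies left of it.

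Protein turnover genes are read beside the shares of all genes tested, 8.95% higher and 3.4% lower in MII. Of 44 proteasome genes, 15 were higher and none lower (median 2.54), and 8 and none after centring. Psmb5, the subunit with chymotrypsin-like activity, was at 8.86, 11.3 and 9.32 FPKM in MII and 0.282, 0.128 and 0.243 FPKM in zygote M (log2 fold change 5.57, adjusted p = 0.000126), and Psmb1 at 7.97, 10.7 and 11.4 FPKM in MII and 0.127, 0.336 and 0.267 FPKM in zygote M (log2 fold change 5.46, adjusted p = 0.000407). Ubb, a gene for ubiquitin, was chosen after its values were seen and overlapped at 4525, 3181 and 4986 FPKM in MII and 3580.0, 2289.6 and 4213 FPKM in zygote M (adjusted p = 0.558). In the ubiquitin list 5 of 40 genes were higher and 1 lower (12.5% and 2.5%), near the shares of all genes. The counts of this list were 11 and 5 after quantile normalization and 4 and 3 after centring. Those of all 7967 genes were 1014 and 1068, and 438 and 432.

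Of 80 nuclear genes of oxidative phosphorylation, 30 were higher and 4 lower (37.5% and 5%, beside 8.95% and 3.4% of all genes). Their median was 2.24. Ndufv1, the flavoprotein of complex I, was at 115, 104 and 96.8 FPKM in MII and 0.0901, 0.0904 and 1.26 FPKM in zygote M (log2 fold change 8.91, adjusted p = 0.00252). Uqcrq of complex III was at 219.5, 252 and 177 FPKM in MII and 4.65, 6.66 and 3.61 FPKM in zygote M (log2 fold change 5.47, adjusted p = 4.78e-09), and Ndufa2 of complex I at 88.5, 133 and 77.2 FPKM in MII and 3.66, 3.55 and 2.25 FPKM in zygote M (log2 fold change 4.97, adjusted p = 5.54e-10). Cox4i1, of cytochrome oxidase, was at 129.8, 151 and 101 FPKM in MII and 2.44, 2.82 and 1.66 FPKM in zygote M (log2 fold change 5.80, adjusted p = 6.16e-09). Among the lower genes, Cox6b2, the testis form of a cytochrome oxidase subunit, was at 8.08, 6.83 and 5.26 FPKM in MII and 314, 427 and 239.5 FPKM in zygote M (log2 fold change -5.59, adjusted p = 6.16e-09), and Cox8a at 31.3, 28.9 and 22.9 FPKM in MII and 576, 874 and 458 FPKM in zygote M (log2 fold change -4.48, adjusted p = 5.81e-09). Subunits of the same enzyme thus went opposite ways, each without overlap. Genes encoded in mitochondrial DNA were not analysed here. The mitochondrial import genes that follow are read beside the same 8.95% and 3.4% of all genes. Of 23 mitochondrial import genes 6 were higher and 1 lower, with Timm13 at 140.2, 166 and 80.5 FPKM in MII and 4.705, 8.97 and 5.98 FPKM in zygote M (log2 fold change 4.29, adjusted p = 3.06e-05) and Timm10 at 9.02, 8.41 and 7.25 FPKM in MII and 0.113, 0.0247 and 0.211 FPKM in zygote M (log2 fold change 6.61, adjusted p = 1.27e-05).

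In RNA synthesis and processing, the lists are read beside 8.95% higher and 3.4% lower among all genes. Of 20 RNA polymerase subunits, 7 were higher and 1 lower. Polr2i, of RNA polymerase II, was at 114, 134 and 99.6 FPKM in MII and 10.8, 11.9 and 9.87 FPKM in zygote M (log2 fold change 3.41, adjusted p = 5.49e-05), and Polr2d at 62.6, 102 and 113 FPKM in MII and 5.49, 7.26 and 4.95 FPKM in zygote M (log2 fold change 3.94, adjusted p = 1.58e-05). Of 58 core splicing genes, 11 were higher and 4 lower (19% and 6.9%). The counts depended on the scaling, with 15 and 11 after quantile normalization and 7 and 4 after centring. Those of all 7967 genes were 1014 and 1068, and 438 and 432. Snrpd2, an Sm protein, was at 65.1, 65.3 and 52.9 FPKM in MII and 0.913, 0.199 and 0.296 FPKM in zygote M (log2 fold change 7.33, adjusted p = 8.54e-07), and Sf3b5 at 77.8, 102 and 68.1 FPKM in MII and 3.69, 8.24 and 4.15 FPKM in zygote M (log2 fold change 4.02, adjusted p = 1.07e-07). Snrpg, another Sm protein, was lower at 0.6604, 0.783 and 0.728 FPKM in MII and 5.45, 6.899 and 3.57 FPKM in zygote M (log2 fold change -2.83, adjusted p = 0.000465), and so was Lsm7, of the LSm ring, at 1.48, 2.96 and 1.65 FPKM in MII and 11.9, 13.2 and 5.997 FPKM in zygote M (log2 fold change -2.34, adjusted p = 0.00478). Nucleolar factors had 9 of 47 higher and 1 lower, with the methyltransferase Emg1 at 72.6, 119 and 91.9 FPKM in MII and 1.57, 1.76 and 2.09 FPKM in zygote M (log2 fold change 5.69, adjusted p = 5.04e-05).

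Replication genes had 7 of 44 higher and none lower, and 2 and none after centring. Tyms, thymidylate synthase, was at 11.99, 12.7 and 19.6 FPKM in MII and 0.126, 0.118 and 0.236 FPKM in zygote M (log2 fold change 6.57, adjusted p = 0.0032). Of 30 repair genes 3 were higher and 1 lower, about the shares of all genes. Xrcc1, the scaffold of single-strand break repair, was at 12.6, 13.5 and 14.1 FPKM in MII and 0.147, 0.237 and 0.416 FPKM in zygote M (log2 fold change 5.78, adjusted p = 6.42e-05). The lower one, Swi5, a gene of recombination repair, was at 0.9998, 1.63 and 1.13 FPKM in MII and 64.8, 50.98 and 60.3 FPKM in zygote M (log2 fold change -5.58 ± 0.42 (SE), adjusted p = 2.66e-10). Of 38 chaperones 7 were higher and 2 lower, where the shares of all genes were 8.95% and 3.4%, and the counts were 3 and 3 after centring and 10 and 6 after quantile normalization. Hspa8, the constitutive HSP70, was at 30.2, 12.9 and 16.6 FPKM in MII and 0.3098, 0.0701 and 0.0335 FPKM in zygote M (log2 fold change 7.70, adjusted p = 0.000426). Cct5, of the chaperonin ring, was at 98.6, 51.2 and 97.5 FPKM in MII and 1.99, 1.71 and 1.13 FPKM in zygote M (log2 fold change 5.65, adjusted p = 0.0408), the call lost without any 1 of the 6 libraries (adjusted p 0.0801 to 0.116).

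Outside these lists, Fbxl6, an F-box gene, had the smallest adjusted p of the genes tested. It was at 959, 1134 and 683 FPKM in MII and 16.3, 12.3 and 10.7 FPKM in zygote M (log2 fold change 6.13 ± 0.36 (SE), adjusted p = 1.43e-12), and at 136, 224 and 102 FPKM in GV and 10.8, 8.91 and 13.01 FPKM in zygote polysomes. Of the called protein-coding genes that averaged 10 FPKM or more in MII, Abhd17a had the largest log2 rise. It encodes an enzyme that removes palmitate from proteins, and was at 29.2, 36.3 and 22.3 FPKM in MII and 0.151, 0.0171 and 0.0584 FPKM in zygote M (log2 fold change 9.07, adjusted p = 0.000193). Tmem102 was at 35.1, 39.6 and 27.1 FPKM in MII and 0.127, 0.01 and 0.2103 FPKM in zygote M (log2 fold change 9.02, adjusted p = 0.000259) with 1 zygote M library at the floor. Upp1, uridine phosphorylase, was at 33.4, 30.3 and 32.4 FPKM in MII and 0.0388, 0.391 and 0.0907 FPKM in zygote M (log2 fold change 8.17, adjusted p = 0.000807). Where the zygote M values lie this close to the floor, the size of the fold depends on the offset.

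Among the other large falls, Gng5, a G-protein gamma subunit, was at 1.38, 0.822 and 0.812 FPKM in MII and 55.02, 50.4 and 41.8 FPKM in zygote M (log2 fold change -5.65, adjusted p = 6.69e-08). Pebp1, the RAF kinase inhibitor, was at 2.84, 2.98 and 2.38 FPKM in MII and 44.5, 67.8 and 49.6 FPKM in zygote M (log2 fold change -4.29, adjusted p = 5.81e-09). Ifitm6 was at 7.57, 6.38 and 7.55 FPKM in MII and 165, 154 and 154 FPKM in zygote M (log2 fold change -4.46, adjusted p = 1.12e-08), the relaxin-family hormone gene Rln3 at 3.38, 2.48 and 2.01 FPKM in MII and 53.8, 68.3 and 54.3 FPKM in zygote M (log2 fold change -4.51, adjusted p = 5.26e-05), and the small GTPase gene Arf5 at 5.302, 3.96 and 4.12 FPKM in MII and 77.3, 139 and 59.1 FPKM in zygote M (log2 fold change -4.28, adjusted p = 1.32e-07). Gstm5, a glutathione transferase, was at 7.42, 4.201 and 4.27 FPKM in MII and 77.9, 101 and 93.04 FPKM in zygote M (log2 fold change -4.14, adjusted p = 0.0119). In each of these genes the lower group lay above the floor in every library.

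The lighter fractions of the same gradients were compared in the same fit. In non-polysome RNA 1327 genes were higher in MII and 248 lower (16.7% and 3.11% of the genes tested), with a median log2 fold change of 0.63. The split was 1072 higher and 1169 lower after quantile normalization (median -0.46) and 895 and 498 with centred libraries (median -0.0977), so the lean to MII depended on the scaling. Of the 713 genes higher in polysomes, 572 (80.2%) were also higher there, which is 43.1% of the 1327. Of the 271 lower genes 101 (37.3%) were lower there, or 40.7% of the 248, and none was called in opposite directions. Fractions of 1 gradient come from the same cells, so the overlap is a description. Mos was at 1333, 1672 and 2279 FPKM in MII non-polysome RNA and 18.3, 59.05 and 4.76 FPKM in zygote M (6.64 on the log2 scale). Zp3 was at 460.1, 676 and 473 FPKM and 5.698, 14.3 and 6.32 FPKM (6.04 on the log2 scale, beside 3.71 in polysomes). For neither gene was the difference between fractions called (0.61 for Mos and -2.33 for Zp3, adjusted p = 0.998 and 0.756). Ribosomal proteins had 62 of 82 higher there and a median of 4.59.

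A direct test of polysome change minus non-polysome change called 34 genes, 0.427% of the genes tested, 3 with a positive and 31 with a negative difference (0.0377% and 0.389%). At an unadjusted p under 0.05 there were 570. The count was 15 to 20 when 1 of the 6 polysome libraries was left out, lowest without MII A or MII C. Of the 34, 16 were also called in polysomes and 28 in the lighter fractions, and for 6 all 3 zygote M non-polysome libraries were at the floor. Pttg1 was among them. Its non-polysome level was 233, 319 and 229 FPKM in MII and 2436, 1836 and 1948 FPKM in zygote M, a log2 fold change of -3.00 beside -5.65 in polysomes (difference -2.65, adjusted p = 0.0154). FPKM is relative within a library, so levels set side by side between fractions are not amounts. In MII the securin FPKM of every polysome library was below that of every non-polysome library. In zygote M the polysome values (2939, 2166 and 2846 FPKM) overlapped those of the lighter fractions. Pebp1 had the same pattern, with a difference of -2.49. In Swi5 (difference -2.86) the MII polysome values were likewise all below the lighter fractions, but in zygote M they were all above them (64.8, 50.98 and 60.3 against 48.8, 49.5 and 33.3 FPKM). Birc5 had a log2 fold change of -1.56 in polysomes and 0.02 in the lighter fractions, but the difference of -1.58 was not called (adjusted p = 0.275).

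**Figure D5:**
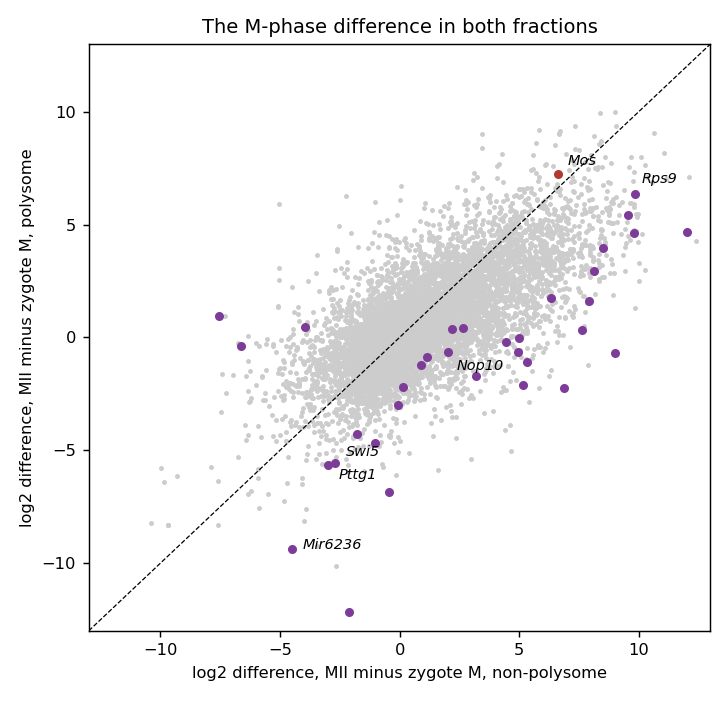
Log2 difference of MII minus zygote M in the non-polysome fraction (x axis) and in polysomes (y axis) for every tested gene, with equal differences on the dashed line. Purple points are the 34 genes called for the difference between fractions, 31 of them under the line, and Mos (red) lies near the line.

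Called genes of both directions were shorter than the rest. Over 6323 protein-coding genes with a transcript model, the median transcript was 1599 bases for genes higher in MII, 1594 for genes lower and 2514 for genes not called. The median 3′ UTR was 264, 439 and 782 bases, and the median coding region 954, 603 and 1167 bases. In the fit of the 6 libraries the medians were 1983, 2282.5 and 2655.5 bases for the transcript and 417, 831.5 and 880 bases for the 3′ UTR. These are descriptions with no test, and ribosomal protein genes, which are short, are among the higher ones.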

How the data were processed

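RNA from the polysome and non-polysome fractions of mouse oocytes and embryos was sequenced with SMART-seq v4 libraries. Per the labels and the study's methods, the authors trimmed reads with Trim Galore 0.4.1, mapped them to GRCm38 with STAR 2.5.3a and quantified genes as FPKM in Partek, and they deposited 1 table of normalized FPKM values with 23125 genes and 36 libraries. All columns were matched to a sample by name, and 2 of the 38 samples, both from zygotes, were without a column. In 25 rows a symbol had been turned into a date. The absolute depth is unknown and counting error could not be given. FPKM is relative within a library, and an offset of 0.01 FPKM is in every value, which shrinks the folds of low genes.

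For this report, limma 3.58.1 (R 4.3.3) was run on log2 FPKM without a further pseudocount. A single model gave each of the 12 stage-by-fraction groups its own mean across the 36 libraries, and variances were moderated along the mean level (eBayes with trend). Genes entered if their geometric mean reached 0.1 FPKM, which left 7967. Calls needed a Benjamini-Hochberg adjusted p under 0.05 and a fold beyond 2, two-sided. The scripts were tested on simulated data. The study's own test, Partek GSA, was not run.

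Genes named were the 12 largest rises and 12 largest falls among called protein-coding genes that averaged 10 FPKM or more in the higher group and did not overlap, up to 4 called genes per list at 5 FPKM or more, a fixed set of M-phase, maternal and translation genes, and the 5 smallest adjusted p in each direction. This gave 133 genes. A further 13, said to be chosen after their values were seen, were Gja4, Ubb, Rps20, Rps25, Imp3, Med28, Nop10, Gaa, Rn7sk, Rn7s1, Rn7s2, Rpph1 and Gm42418. Rps27l, Rplp0, Bmp15, Tube1, Mapk3, Mastl and the other tubulins were also chosen after their values were seen. Some genes that the rule selects are not reported here. The comparison, the 41 gene lists and the rule were chosen with earlier results of these data known. Lists are described by counts and medians, with no set test. Positions are those of the table with the stop moved by 1, and equal the GENCODE M21 model for 136 of 146 genes. The alternatives were other added values, filters, scalings, fits of fewer libraries, weights, blocks and leaving out each library. Python 3.11.15 with pandas 2.3.3, numpy 2.4.6 and matplotlib 3.10.9 was used.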

Additional observations from a re-analysis of the deposited data

Results flagged for a closer look

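A test of the difference between fractions, polysome change minus non-polysome change for MII against zygote M, called 34 genes (limma, adjusted p under 0.05 and a fold beyond 2). The values below are such differences on the log2 scale, and 12 of the 34 genes are given by name. For Gaa the difference was -5.22, for Imp3 -2.34, for Med28 -2.09, for Nop10 -2.67 and for Ubb -1.85. For the ribosomal protein genes Rps9, Rps20 and Rps25 it was -3.46, -4.13 and -5.20. The zygote M non-polysome values were near the floor for Rps9 (0.0666, 0.09203 and 0.0682 FPKM), Rps20 (0.0204, 0.0243 and 0.0198 FPKM), Rps25 (0.01, 0.01 and 0.0258 FPKM) and Gaa (0.0126, 0.02696 and 0.0509 FPKM), so the size of these differences depends on the offset. For Pttg1, Swi5 and Pebp1, which were lower in MII polysomes, it was -2.65, -2.86 and -2.49. For Mir6236, at the floor in all 3 MII polysome libraries, it was -4.88. Their adjusted p ranged from 0.0076 for Rps25 to 0.0458 for Ubb. Med28, a subunit of the Mediator complex, was at 44.2, 53.4 and 49.4 FPKM in MII and 112, 129 and 100.4 FPKM in zygote M in polysomes, and at 145, 186 and 159.7 FPKM and 75.8, 109 and 83.6 FPKM in the lighter fractions, so it was lower in MII in the first and had a log2 fold change of 0.88 in the second. Imp3, of the small-subunit processome, had a log2 fold change of -2.21 in polysomes and 0.13 outside them. Rps20 and Rps25 were higher in MII in both fractions, by 5.44 and 4.62 in polysomes and 9.57 and 9.82 outside them. Gaa, acid alpha-glucosidase, had 2.92 and 8.14. Nop10, of the telomerase and pseudouridylation particle, was not called in polysomes (-0.66) and was higher outside them (2.01).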

How the results depend on the processing

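The number of genes called between MII and zygote M polysomes, 984 with the chosen settings, was 1644 with 0.1 and 1776 with 1 added to each FPKM, 2082 after quantile normalization, 3235 in the fit of the 6 libraries, 1757 in the fit of the polysome libraries and 3436 with weights estimated per group. It ranged from 629 (without MII A) to 733 when 1 library was left out, and was 653 without MII B. Where fewer libraries enter, an arm of 2 is left, which is part of the loss by construction. For the difference between fractions, 34 genes became 84 with no filter on low values, 16 with centred libraries and 145 with weights, and 15 to 20 when 1 library was left out. Calls in the lighter fractions, 1575, stayed within 1.5 times of that count under the alternatives run, but the lower ones went from 248 to 1169 after quantile normalization and 498 with centred libraries. The share of ribosomal protein genes with a pyrimidine run, 47.7%, was 23.1% with the start base only (3.01% of all symbols) and 81.5% with 20 bases either side (53.3% of all symbols). The cause of each shift was not tested.

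Log2 fold changes near 0 changed sign. With centred libraries Ccnb1 was at -0.25, Ccnb2 -0.0586, Cdk1 -0.42, Fbxo43 -0.33, Aurkb -0.34 and Ubb -0.27. After quantile normalization Ccnb2 was at -0.0689, Cdk1 -0.58, Fbxo43 -0.40 and Aurkb -0.44. With 1 library left out, Ccnb2 ranged from -0.0228 (without zygote M B) to 1.03, Cdc20 from -0.45 to 0.0222 (without zygote M A), Fbxo43 from -0.13 (without zygote M B, and -0.0185 without MII B) to 0.81, Btg4 from -0.54 to 0.23 (without MII C, and 0.0759 without zygote M C) and Wee2 from -0.46 to 0.0693 (without MII C, and 0.0143 without zygote M C). The median of the Aurora, Polo and passenger genes, 0.35 above that of all genes, ranged from -0.00743 (without zygote M B) to 0.43. None of the single genes given here with a change of sign was called, while in the Aurora, Polo and passenger list Aurkc and Birc5 were. Of the 146 genes that the naming rule and the added names gave, 125 were called. Of these, 19 lost their call with centred libraries, 2 after quantile normalization and 10 with no filter. With 1 library left out 20 to 26 lost it, most without MII A, and 5 in the fit of the polysome libraries.

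The replicate letters are shared by the groups, but residuals of same-lettered MII and zygote M polysome libraries correlated at only 0.0226, 0.0244 and 0.0147, so the letters are not read as pairs. With the replicate letter as a block, 946 genes passed in the polysome comparison (685 higher, 261 lower). Outside polysomes 1528 passed, and 39 passed for the difference between fractions. Among the called genes counted above, 3 lost their call with that block.

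Precision is limited by 3 libraries per group, an unknown absolute depth, and the floor, at which 6744 to 8329 genes stood in the MII libraries and 8312 to 9521 in the zygote M libraries.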

Other observations

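Noncoding RNAs leaned to zygote M. Of 90 genes of the TEC class (unconfirmed gene models), 13 were lower in MII polysomes and none higher, and of 196 lincRNAs 12 were lower and 7 higher, where 153 of 6400 protein-coding genes were lower and 565 higher. All 4 tested miRNA genes and 4 of 5 scaRNA genes were lower. Rn7sk, the small nuclear RNA that holds back the elongation factor P-TEFb, was at 8.14, 6.72 and 4.14 FPKM in MII and 57.4, 97.5 and 42.7 FPKM in zygote M (log2 fold change -3.35, adjusted p = 0.00508). Rn7s1, a copy of the RNA of the signal recognition particle, was at 43.9, 23.2 and 15.8 FPKM in MII and 171, 406 and 113 FPKM in zygote M (log2 fold change -2.98, adjusted p = 0.00692), a call lost without zygote M B (adjusted p = 0.0618). Its near-identical copy Rn7s2 was at 43.9, 30.7 and 15.8 FPKM in MII and 155, 406 and 107 FPKM in zygote M, a call lost without MII C or zygote M B (adjusted p 0.1 to 0.128), and reads of the pair cannot be told apart. Rpph1, the RNA of RNase P, was at the floor in all 3 MII libraries and at 0.306, 1.1999 and 1.91 FPKM in zygote M. Gm42418, whose model overlaps sequence of ribosomal RNA, was at 0.0743, 0.06405 and 0.01 FPKM in MII and 0.509, 0.746 and 0.452 FPKM in zygote M (log2 fold change -3.94, adjusted p = 0.0215), a call lost without MII C, zygote M A or zygote M B (adjusted p 0.0547 to 0.153). Mir6236 was at the floor in the 3 MII libraries and at 5.39, 13.1 and 4.29 FPKM in zygote M. These RNAs mostly lack a poly(A) tail, and the part of priming in their levels was not tested.

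Of 891 tested processed pseudogenes, 13.8% were higher in MII and 5.61% lower. Gm2000, a row of the protein-coding class with one of the smallest adjusted p, was at 213, 253 and 292 FPKM in MII and 4.07, 5.72 and 5.01 FPKM in zygote M (log2 fold change 5.68, adjusted p = 3.2e-10). Transcripts of the burst at the 2-cell stage had 1 of 12 tested genes higher and none lower, with summed levels of 57.1 to 91.1 FPKM in MII and 108 to 218 FPKM in zygote M. Beside 8.95% higher and 3.4% lower among all genes tested, early embryonic transcription factors had 1 of 26 higher and 1 lower, genes of DNA methylation and imprint protection 1 of 20 higher and 2 lower, oocyte Nlrp genes none of 10 higher and 1 lower, and core apoptosis genes none of 14 higher and 1 lower.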
